A study of Arabidopsis thaliana with 9 samples.

Results

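Phospholipases and related lipid acyl hydrolases were followed in Arabidopsis leaves that had received butterfly eggs or an extract of such eggs. The genes were chosen by name, with earlier results of these data known. A gene was taken when the gene description in the deposited table contained the word phospholipase or patatin. This gave 39 of 17605 genes (36 by the first word and 4 by the second, 1 gene having both). By their descriptions and symbols, 8 belonged to class A, 11 to class C and 10 to class D, and 10 were related proteins outside these classes. The study used leaves of 5-week-old plants of the wild type accession Col-0, with no mutant or transgene in any group. In the oviposition group, *Pieris brassicae* butterflies laid eggs within 24 h in a tent, and 4 plants with 1 egg batch on each of 2 leaves were kept for a further 4 days before the eggs were taken off. In the egg extract (EE) group, 2 drops of 2 µL of EE were put on each of 2 leaves of 4 plants for 5 days, and control plants were untreated. Each group had 3 libraries from 3 independent experiments. How the leaves of the 4 plants were combined is not given in the sources used here, nor whether a replicate number marks 1 experiment across groups. Controls were neither tented nor spotted with a solvent, so handling and eggs cannot be told apart in either comparison with control.

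Phospholipases are grouped by the bond they cut in a membrane phospholipid. Class A enzymes release a fatty acid and leave a lysophospholipid, class C enzymes release the phosphorylated head group and leave diacylglycerol, and class D enzymes release the free head group and leave phosphatidic acid. These products act as signals in plant stress responses, and fatty acids set free from membranes feed jasmonate synthesis. Patatin-related proteins are class A enzymes named after the main storage protein of potato tubers, which hydrolyses acyl lipids.

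Values are deposited log2 normalized counts (log2 CPM, library-scaled read counts on a log scale), so that a difference of 1 is close to a 2-fold change. They also carry a scale factor per library from the authors, between 0.988 and 1.015. Fold changes and CPM values derived from them are therefore approximate. Libraries held between 37348236 and 47057692 reads assigned to genes. All 5 leaf markers were in the table, with log2 levels of 7.64 to 15.4 in oviposited, 7.37 to 14.3 in EE-treated and 6.32 to 16.1 in control leaves. The study's own response markers, chosen on these samples, stood at 4.05 to 8.92 after oviposition and 7.45 to 10.0 after EE, against −4.17 to 2.11 in control leaves, so no treated library overlapped a control library. Libraries with replicate number 2 stood apart. In 26 of the 39 genes (66.7%), replicate 2 deviated from the mean of replicates 1 and 3 in the same direction in all 3 groups, against 59.7% of all genes.

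The putative promoters of 4 genes are shown because these genes carry the main results: AT4G35110, which passed the test after both treatments, AT4G38560, with a change of like size that did not pass, and *PLP2* and *PLC7*, which passed after EE when, over all 9 libraries, those with the same number were compared with each other. Each line is the 250 bases before the annotated start, 5′ to 3′ on the strand of the gene, from RefSeq (TAIR10.1). Capitals mark the W-box core TTGAC (or GTCAA, the same motif on the other strand), bound by WRKY factors, and the G-box CACGTG, which reads the same on both strands.
AT4G35110: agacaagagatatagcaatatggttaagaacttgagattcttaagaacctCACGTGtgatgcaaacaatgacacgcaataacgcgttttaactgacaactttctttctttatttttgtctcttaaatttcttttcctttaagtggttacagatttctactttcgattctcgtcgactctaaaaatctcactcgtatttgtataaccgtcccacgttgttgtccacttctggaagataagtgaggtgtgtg
AT4G38560: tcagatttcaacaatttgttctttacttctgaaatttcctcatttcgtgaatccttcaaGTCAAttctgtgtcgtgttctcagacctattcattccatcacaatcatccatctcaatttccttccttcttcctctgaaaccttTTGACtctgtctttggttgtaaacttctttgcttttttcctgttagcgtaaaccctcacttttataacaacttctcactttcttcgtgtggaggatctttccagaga
PLP2: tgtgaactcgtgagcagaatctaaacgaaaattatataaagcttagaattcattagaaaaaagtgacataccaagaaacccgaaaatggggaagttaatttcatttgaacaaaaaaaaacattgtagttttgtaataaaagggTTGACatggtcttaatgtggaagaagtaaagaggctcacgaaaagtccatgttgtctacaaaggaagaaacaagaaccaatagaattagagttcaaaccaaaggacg
PLC7: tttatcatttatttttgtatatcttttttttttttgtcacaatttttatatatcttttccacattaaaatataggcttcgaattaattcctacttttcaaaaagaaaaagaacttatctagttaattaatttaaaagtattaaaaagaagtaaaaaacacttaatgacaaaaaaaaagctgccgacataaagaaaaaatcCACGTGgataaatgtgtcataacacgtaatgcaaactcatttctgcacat
These windows lie at chr4:16715115-16715364 (minus strand), chr4:18028946-18029195 (plus strand), chr2:11295919-11296168 (minus strand) and chr3:20747379-20747628 (plus strand), in the order of the lines. The W-box core had 2 matches in the window of AT4G38560, 1 in that of *PLP2* and 0 in the others. It was found in 18 of the 39 genes (46.2%) and in 44.5% of the 31345 annotated promoters of this length. The G-box occurred in the windows of AT4G35110 and *PLC7*, in 5 of the 39 genes (12.8%) and in 5.93% of all promoters. The TGA core TGACG, which can overlap the W-box core, was found in 6 of the 39 genes (15.4%) and in 18.3% of all promoters. Among the 17281 promoters of genes in the deposited table, the shares were 44.9% (W-box core), 7.52% (G-box) and 19.5% (TGA core). These are matches of letters and were not tested as binding sites.

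**Figure D1:**
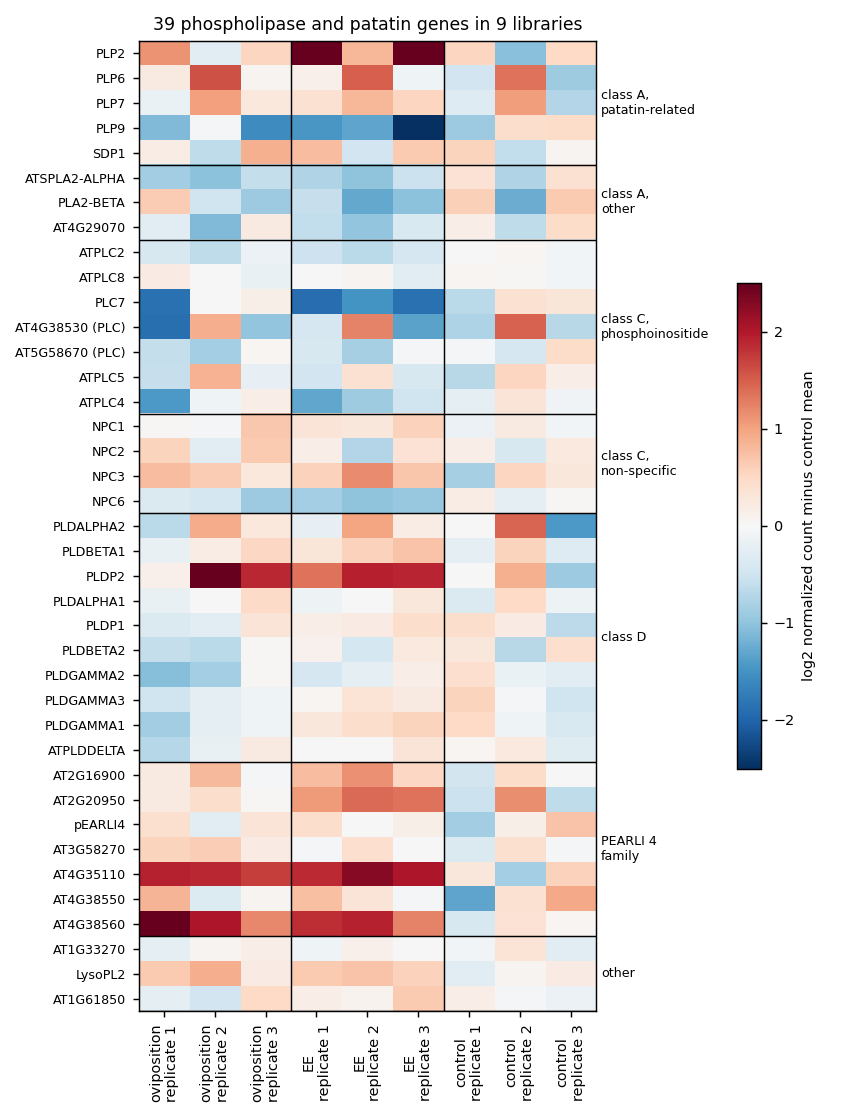
Heat map of the 39 phospholipase and patatin genes (rows, grouped by class) in the 9 libraries (columns), as the log2 normalized count minus the mean of the 3 control libraries, with colours saturating at a difference of 2.5. AT4G35110 and AT4G38560 are above the control mean in all oviposition and EE libraries, *PLC7* is below it in all 3 EE libraries, and *PLP2* is above it in all 3 EE libraries.

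In oviposited compared with control leaves, 1 of the 39 genes passed the threshold (limma, Benjamini-Hochberg adjusted p under 0.05 over all 17605 genes), against 1.5% of all genes. In EE-treated compared with control leaves, 1 of the 39 passed, against 3.02% of all genes. It was AT4G35110 in both comparisons, and it was higher in treated leaves. Without a block for the replicate number, none of the 29 genes of classes A, C and D passed in either comparison, with lowest adjusted p-values of 0.498 after oviposition and 0.0723 after EE. At an unadjusted p under 0.05, 6 of the 39 genes differed after oviposition and 11 after EE, against 7.69% and 13.4% of all genes. The 3 oviposition libraries did not overlap the 3 control libraries in 4 of the 39 genes, against 9.24% of all genes, and the EE libraries did not overlap the controls in 13 of the 39, against 18.8% of all genes. EE and oviposition share the control libraries, so their values are given side by side and not counted as independent.

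AT4G35110 belongs to the PEARLI 4 family, proteins that the annotation names for their likeness to phospholipases and for which it lists no class. It stood at 3.93, 3.89 and 3.74 in oviposited and 3.87, 4.28 and 4.03 in EE-treated leaves, against 2.28, 1.16 and 2.58 in control leaves (log2 normalized counts, replicates 1 to 3). No treated library overlapped a control library, and the treated libraries were close to each other while control replicate 2 was the lowest. The lowest value rested on 107 reads. The log2 fold change was 1.85 ± 0.36 (SE, n = 3 per group, limma adjusted p = 0.0427) after oviposition and 2.05 ± 0.36 (limma adjusted p = 0.0167) after EE, that is 3.60-fold and 4.15-fold. Without the 3 libraries of number 2, these changes were 1.40 and 1.51 and neither passed. Of 22 alternatives, 6 kept the call after oviposition and 17 the call after EE. After oviposition it ended with the replicate block (limma adjusted p = 0.0539), precision weights (0.0668), quantile normalization (0.0518), voom (0.0638), a low-value filter (0.0508) or a fit of only the 2 groups (0.202), and when control replicate 1, any oviposition library or any EE library was left out. After EE it ended in the fit of only the 2 groups and when any EE library was left out.

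The other 6 members of the PEARLI 4 family did not pass in the analysis reported. All 7 had a higher mean in both oviposited and EE-treated leaves than in control leaves. The median log2 fold change of the family was 0.33 after oviposition and 0.82 after EE, beside −0.02 and −0.04 over all genes, where 47.7% and 46.9% were higher. AT4G38560 lies 395 bases downstream of another member, AT4G38550, on the same strand of chromosome 4. It stood at 3.40, 2.50 and 1.68 in oviposited and 2.33, 2.40 and 1.72 in EE-treated leaves, against 0.08, 0.83 and 0.51 in control leaves. All treated libraries lay above all controls, and oviposition replicate 1 was the highest. Its log2 fold change was 2.05 ± 0.46 after oviposition and 1.68 ± 0.46 after EE (SE, limma adjusted p = 0.0806 and 0.116). With the replicate block, AT4G38560 passed after both treatments when control replicate 3 was left out, and after EE when oviposition replicate 1 was left out. Its neighbour AT4G38550 was the most abundant member of the family per length of transcript (161 CPM per kb over the 9 libraries). It stood at 9.12, 7.91 and 8.32 in oviposited and 9.02, 8.59 and 8.21 in EE-treated leaves, against 6.93, 8.64 and 9.21 in control leaves, a spread wider than either difference between groups. Its log2 fold changes, 0.19 ± 0.58 and 0.35 ± 0.58 (SE), were smaller than their standard errors.

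AT2G20950 and *pEARLI4* (AT2G20960) form another pair of neighbours, with 709 bases between them. AT2G20950 stood at 4.65, 4.87 and 4.47 in oviposited and 5.50, 5.85 and 5.80 in EE-treated leaves, against 3.91, 5.60 and 3.81 in control leaves. Control replicate 2 was far above the other controls and fell among the EE libraries. The log2 fold change after EE was 1.28 ± 0.43 (SE, limma adjusted p = 0.219), and without control replicate 2 it was 1.86 and passed (limma adjusted p = 0.00415). *pEARLI4* had log2 fold changes of 0.15 ± 0.39 after oviposition and 0.20 ± 0.39 after EE (SE). AT2G16900 had log2 fold changes of 0.33 ± 0.32 and 0.82 ± 0.32, and AT3G58270, which carries a TRAF-like domain by its annotation, had 0.46 ± 0.28 and 0.13 ± 0.28 (SE, oviposition before EE). None of these 3 genes passed in the analysis reported, and AT2G16900 passed after EE with the block and without control replicate 3.

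**Figure D2:**
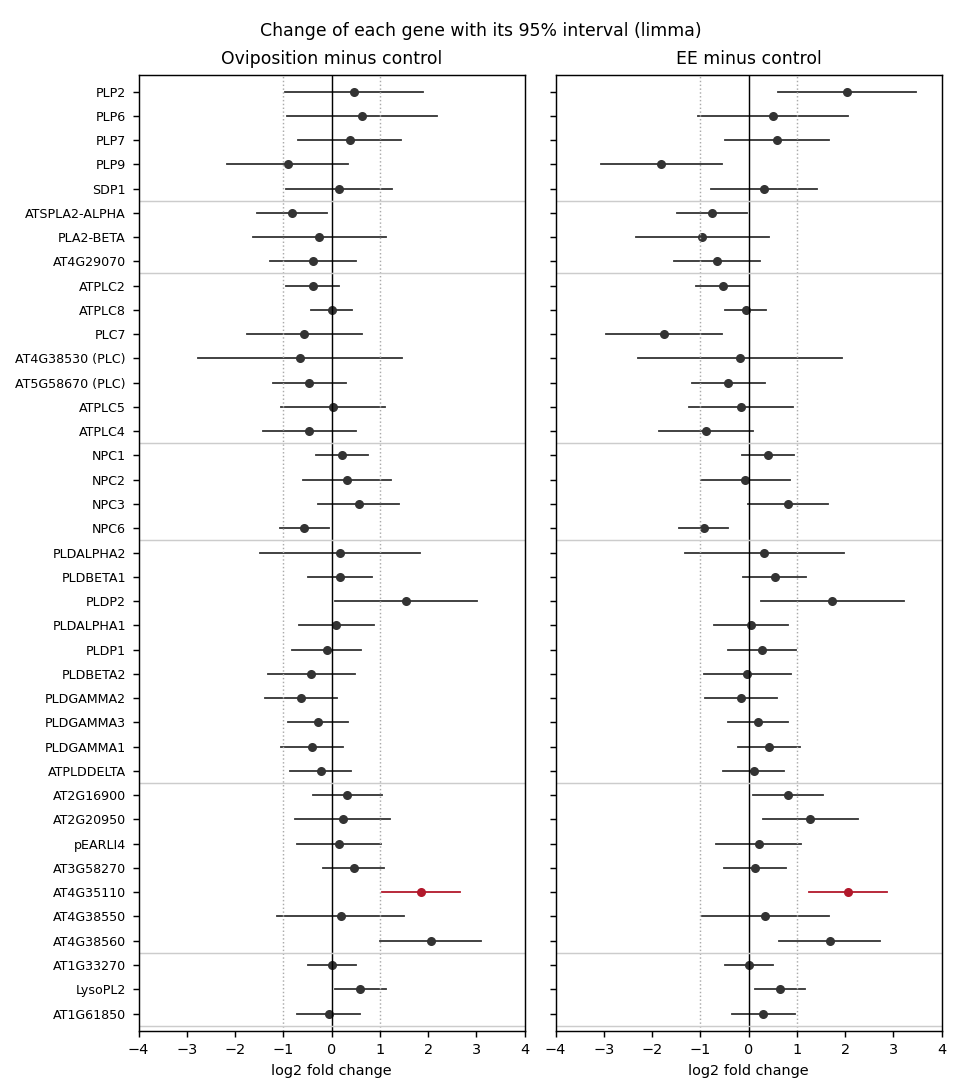
Log2 fold change (x axis) of each of the 39 genes (rows, in the order of the heat map, grey lines between classes) in oviposited minus control leaves (left) and EE-treated minus control leaves (right), with points for limma estimates and bars for 95% confidence intervals. Red marks AT4G35110, which passed in both comparisons, and dotted lines mark a 2-fold change in either direction.

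Of the 5 patatin-related class A genes, 4 had a higher mean and 1 a lower mean in each of the 2 comparisons with control, and none passed without the block. *PLP2* (AT2G26560, phospholipase A 2A), an acyl hydrolase known to be induced by pathogens and to promote cell death, was the most abundant class A gene per length of transcript, with a mean over the 9 libraries of 203 CPM per kb. It stood at 8.21, 6.80 and 7.62 in oviposited and 9.84, 7.92 and 9.61 in EE-treated leaves, against 7.63, 6.03 and 7.59 in control leaves. Replicate 2 was the lowest library of each group, and all EE libraries lay above all controls while oviposition libraries overlapped both. In EE-treated leaves the log2 fold change was 2.04 ± 0.63 (SE, limma adjusted p = 0.171). Between libraries of the same number, EE minus control was 2.21, 1.89 and 2.01. With the replicate number as a block, the standard error was 0.24 and the change passed (limma adjusted p = 0.00501). Whether libraries of the same number are pairs from 1 experiment is not given. After oviposition the log2 fold change was 0.46 ± 0.63 (SE, limma adjusted p = 0.998), with same-number differences of 0.58, 0.77 and 0.03. The blocked call after EE ended without EE replicate 1 (limma adjusted p = 0.0577) or EE replicate 3 (limma adjusted p = 0.0558).

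With the block, 3 of the 39 genes passed after EE (*PLP2*, *PLC7* and AT4G35110), against 4.4% of all genes. In bulk leaf RNA, fewer cells of a type and less RNA per cell cannot be told apart, and this applies to each change given here.

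*PLP9* (AT3G63200), a patatin-related gene, had the most negative log2 fold change of class A in both comparisons with control. It stood at 2.48, 3.54 and 2.02 in oviposited and 2.13, 2.27 and 0.93 in EE-treated leaves, against 2.69, 4.04 and 4.05 in control leaves. The EE libraries lay below all controls, and the oviposition libraries overlapped both groups. Compared with control, *PLP9* had a log2 fold change of −0.91 ± 0.55 after oviposition and −1.81 ± 0.55 after EE (SE, limma adjusted p = 0.924 and 0.162, and 0.0828 after EE with the block). *PLP6* (AT2G39220) stood at 3.02, 4.40 and 2.87 in oviposited and 2.93, 4.30 and 2.69 in EE-treated leaves, against 2.33, 4.16 and 1.93 in control leaves. In each group replicate 2 was the highest library, by more than the log2 fold changes of 0.63 after oviposition and 0.50 after EE. *PLP7* (AT3G54950) had log2 fold changes of 0.37 ± 0.47 and 0.59 ± 0.47, and *SDP1* (AT5G04040), the triacylglycerol lipase that mobilises seed oil at germination, had 0.15 ± 0.48 and 0.31 ± 0.48 (SE, oviposition before EE).

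The 3 other class A genes encode small phospholipase A2 proteins, and all 3 had a lower mean after both treatments, with no call. *ATSPLA2-ALPHA* (AT2G06925), a secretory phospholipase A2, stood at 4.15, 3.99 and 4.42 in oviposited and 4.26, 4.01 and 4.48 in EE-treated leaves, against 5.37, 4.27 and 5.40 in control leaves. Control replicate 2 lay among the treated libraries and the other controls above them. *ATSPLA2-ALPHA* had a log2 fold change of −0.83 ± 0.32 after oviposition and −0.76 ± 0.32 after EE (SE, limma adjusted p = 0.498 and 0.350). Without control replicate 2 these values were −1.20 and −1.13, and both passed (limma adjusted p = 0.0489 and 0.0378). *PLA2-BETA* (AT2G19690), also secretory, stood at 2.11, 0.99 and 0.58 in oviposited and 0.91, 0.20 and 0.47 in EE-treated leaves, against 2.08, 0.23 and 2.13 in control leaves. Its groups overlapped, and its log2 fold change was −0.26 ± 0.61 after oviposition and −0.96 ± 0.61 after EE (SE). AT4G29070 had log2 fold changes of −0.39 ± 0.39 and −0.66 ± 0.39 (SE, oviposition before EE).

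Class C holds 7 phosphoinositide-specific enzymes, which cut phosphorylated phosphatidylinositol, and 4 non-specific ones, which accept common phospholipids such as phosphatidylcholine. All 7 phosphoinositide-specific genes had a lower mean in EE-treated than in control leaves, and 5 of 7 in oviposited leaves, with median log2 fold changes of −0.43 and −0.46. Over all genes, 46.9% were higher after EE and 47.7% after oviposition, and the others lower. The changes of *ATPLC5*, *ATPLC8* and AT4G38530 after EE were smaller than their standard errors. None of the 7 passed without the block. *PLC7* (AT3G55940) stood at 2.82, 4.69 and 4.83 in oviposited and 2.78, 3.18 and 2.82 in EE-treated leaves, against 4.00, 5.07 and 4.97 in control leaves. All EE libraries lay below all controls, and oviposition replicate 1 stood with the EE libraries while oviposition replicates 2 and 3 stood with the controls. The log2 fold change was −1.75 ± 0.53 after EE (SE, limma adjusted p = 0.158) and −0.57 ± 0.53 after oviposition (limma adjusted p = 0.998). Same-number EE minus control differences were −1.22, −1.89 and −2.15, and with the block the change after EE passed (limma adjusted p = 0.0402). That call ended without any one of the control libraries, oviposition replicate 2, or EE replicates 2 or 3, with limma adjusted p-values of up to 0.242, and without the block the change passed when oviposition replicate 1 was left out.

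*ATPLC2* (AT3G08510) is the main phosphoinositide-specific phospholipase C of Arabidopsis leaves. It stood at 8.53, 8.30 and 8.78 in oviposited and 8.41, 8.25 and 8.51 in EE-treated leaves, against 8.95, 8.98 and 8.87 in control leaves. In the deposited values, every treated library lay below every control library, and the controls differed by little. These log2 values carry a scale factor per library from the authors, largest in control replicate 3 (1.015). By recovered reads over the fitted library size, oviposition replicate 3 (19430 over 4.38e+07) lay above control replicate 3 (12786 over 2.99e+07). Without this scale step the groups therefore overlapped. *ATPLC2* had log2 fold changes of −0.39 ± 0.24 after oviposition and −0.54 ± 0.24 after EE (SE, limma adjusted p = 0.936 and 0.388). *ATPLC4* (AT5G58700) stood at 1.84, 3.15 and 3.44 in oviposited and 1.97, 2.39 and 2.77 in EE-treated leaves, against 3.04, 3.59 and 3.18 in control leaves. The EE libraries lay below all controls, and the log2 fold change after EE was −0.89 ± 0.43 (SE, limma adjusted p = 0.433).

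The symbol ATPLC1 is given to 2 loci in the deposited table, which are named here by locus. AT5G58670 stood at 6.29, 6.04 and 6.94 in oviposited and 6.49, 6.06 and 6.84 in EE-treated leaves, against 6.85, 6.46 and 7.35 in control leaves. Replicate 3 was the highest library in each group, and the groups overlapped, with log2 fold changes of −0.46 ± 0.33 and −0.43 ± 0.33 (SE, oviposition before EE). AT4G38530 stood at −0.08, 2.71 and 0.82 in oviposited and 1.38, 3.04 and 0.47 in EE-treated leaves, against 1.02, 3.28 and 1.10 in control leaves. Replicate 2 was the highest library of each group, and the log2 fold changes of −0.65 ± 0.93 and −0.17 ± 0.93 had the largest standard error of the 39 genes. *ATPLC5* (AT5G58690) and *ATPLC8* (AT3G47290) had log2 fold changes of 0.02 ± 0.47 and 0.00 ± 0.19 after oviposition, and of −0.16 ± 0.47 and −0.06 ± 0.19 after EE (SE). The 95% interval of *ATPLC8* ran between −0.42 and 0.42 after oviposition and between −0.48 and 0.36 after EE, the narrowest of the 39 genes.

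Among the 4 non-specific class C genes, the direction differed between members. *NPC6* (AT3G48610) stood at 4.01, 3.93 and 3.46 in oviposited and 3.52, 3.37 and 3.43 in EE-treated leaves, against 4.56, 4.13 and 4.40 in control leaves. Neither treated group overlapped the controls. Its log2 fold change was −0.56 ± 0.22 after oviposition and −0.93 ± 0.22 after EE (SE, limma adjusted p = 0.530 and 0.0723, and 0.0605 after EE with the block). *NPC3* (AT3G03520) stood at 4.11, 3.97 and 3.59 in oviposited and 3.91, 4.52 and 4.03 in EE-treated leaves, against 2.51, 3.87 and 3.61 in control leaves. The EE libraries lay above all controls, control replicate 1 being the lowest, and the log2 fold changes were 0.56 ± 0.37 and 0.82 ± 0.37 (SE, limma adjusted p = 0.959 and 0.385). *NPC1* (AT1G07230) had the highest level of the 4 per length, 27.3 CPM per kb, and had log2 fold changes of 0.22 ± 0.24 and 0.39 ± 0.24. *NPC2* (AT2G26870) had log2 fold changes of 0.31 ± 0.40 and −0.07 ± 0.40 (SE, oviposition before EE).

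Of the 10 class D genes, 4 had a higher mean in oviposited than in control leaves and 8 had a higher mean in EE-treated than in control leaves, and none passed. *PLDALPHA1* (AT3G15730), the major phospholipase D of leaves with a known role in abscisic acid signalling, had the highest level of the 39 genes per length, 213 CPM per kb. It stood at 9.02, 9.22 and 9.68 in oviposited and 9.08, 9.19 and 9.50 in EE-treated leaves, against 8.85, 9.70 and 9.08 in control leaves. The groups overlapped fully. Its log2 fold change was 0.10 after oviposition (95% interval −0.68 to 0.87) and 0.05 after EE (95% interval −0.73 to 0.82), so a 2-fold change in either direction lay outside both intervals. *PLDP2* (AT3G05630), known to be induced by phosphate starvation, had the largest log2 fold change of the class. It stood at 1.68, 4.15 and 3.44 in oviposited and 2.92, 3.49 and 3.46 in EE-treated leaves, against 1.57, 2.45 and 0.65 in control leaves. The EE libraries lay above all controls, and oviposition replicate 1 stood among the controls. *PLDP2* had log2 fold changes of 1.53 ± 0.65 after oviposition and 1.74 ± 0.65 after EE (SE, limma adjusted p = 0.596 and 0.275). *PLDP1* (AT3G16785), the other member of the same subgroup, had log2 fold changes of −0.10 ± 0.31 and 0.27 ± 0.31 (SE, oviposition before EE).

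The 3 *PLDGAMMA* genes lie next to each other on the minus strand of chromosome 4, with 719 bases between *PLDGAMMA2* and *PLDGAMMA3* and 3240 between *PLDGAMMA3* and *PLDGAMMA1*. Of all 50-base windows of their transcripts, 13.5% in *PLDGAMMA2*, 19.3% in *PLDGAMMA3* and 11.5% in *PLDGAMMA1* also occur in another gene, and how such reads were assigned is not given in the sources used here, so their single values are uncertain to that extent. *PLDGAMMA1* (AT4G11850) stood at 6.43, 6.58 and 6.70 in EE-treated leaves and 5.29, 5.91 and 6.04 in oviposited leaves, against 6.64, 6.04 and 5.76 in control leaves. The EE libraries lay above all oviposition libraries, and the controls spread across both. Its log2 fold change was −0.41 ± 0.29 in oviposited and 0.42 ± 0.29 in EE-treated compared with control leaves (SE, limma adjusted p = 0.997 and 0.625). *PLDGAMMA2* had log2 fold changes of −0.63 ± 0.33 and −0.16 ± 0.33, and *PLDGAMMA3* had −0.28 ± 0.27 and 0.20 ± 0.27 (SE, oviposition before EE). *ATPLDDELTA* (AT4G35790), which responds to hydrogen peroxide, had log2 fold changes of −0.23 ± 0.28 and 0.10 ± 0.28. *PLDBETA1* (AT2G42010) had log2 fold changes of 0.17 ± 0.29 and 0.53 ± 0.29, *PLDBETA2* (AT4G00240) had −0.42 ± 0.40 and −0.03 ± 0.40, and *PLDALPHA2* (AT1G52570) had 0.17 ± 0.73 and 0.32 ± 0.73.

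**Figure D3:**
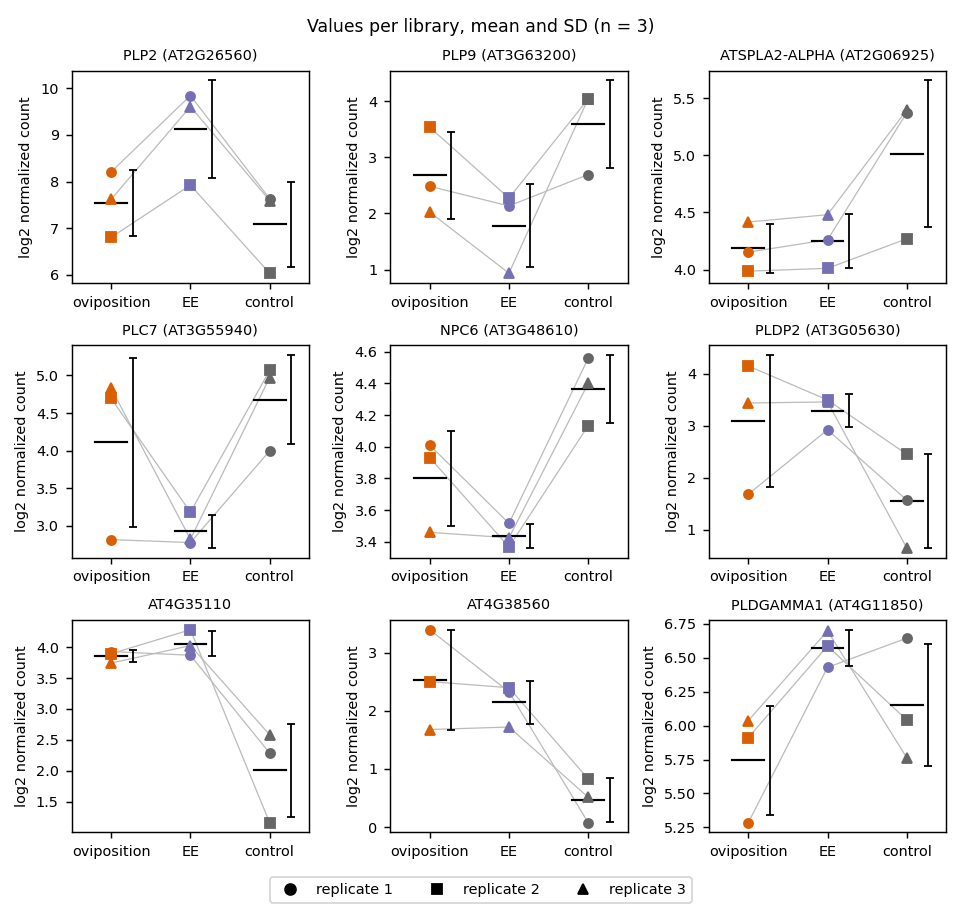
Log2 normalized counts (y axis, a scale of its own in each panel) of 9 genes in the 3 oviposition, 3 EE and 3 control libraries. Points are libraries, thin lines join libraries of the same replicate number, and black bars give the mean and SD. AT4G35110 and AT4G38560 separate both treatments from control, and the *PLP2* lines run nearly in parallel between EE and control.

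The 3 remaining genes are hydrolases for which the table names no class. *LysoPL2* (AT1G52760), a lysophospholipase that also acts as caffeoyl shikimate esterase in lignin synthesis, stood at 5.14, 5.40 and 4.68 in oviposited and 5.14, 5.20 and 5.05 in EE-treated leaves, against 4.21, 4.55 and 4.68 in control leaves. The EE libraries lay above all controls. Its log2 fold change was 0.59 ± 0.23 after oviposition and 0.65 ± 0.23 after EE (SE, limma adjusted p = 0.518 and 0.248). AT1G61850, annotated as a phospholipase and galactolipase, had log2 fold changes of −0.07 ± 0.28 and 0.31 ± 0.28. AT1G33270 had means that differed by less than 0.01 from control, with 95% intervals of −0.50 to 0.50 in both comparisons.

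Classes A, C and D were then compared as groups, with no test because the genes of a class are not replicates. The median log2 fold change after oviposition was −0.05 in class A, −0.39 in class C and −0.17 in class D. After EE it was −0.17 in class A, −0.17 in class C and 0.24 in class D, beside −0.04 over all genes. These medians moved with single libraries. Leaving out 1 library gave, after oviposition, −0.42 (without control replicate 2) to 0.13 (without control replicate 1) in class A, −0.39 to 0.025 in class C and −0.41 (without control replicate 3) to 0.020 (without oviposition replicate 1) in class D. The class A median was also above 0 without control replicate 3 or oviposition replicate 2, and the class C median without control replicate 2 or oviposition replicate 1. After EE the range was −0.49 (without control replicate 2) to −0.15 in class A, −0.51 (without control replicate 1) to −0.17 in class C and −0.032 (without control replicate 3) to 0.37 (without control replicate 1) in class D.

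Summed over its genes, class D reached 757 to 1248 CPM in oviposited and 936 to 1225 CPM in EE-treated leaves, against 840 to 1249 CPM in control leaves, and the groups overlapped. Class C reached 546 to 745 CPM in oviposited and 530 to 631 CPM in EE-treated leaves, against 749 to 795 CPM in control leaves. In the deposited values, treated and control libraries did not overlap, by a narrow margin (745 CPM in oviposition replicate 3, 749 CPM in control replicate 1). Without the authors' scale step, the class C sum of oviposition replicate 3 lay above that of control replicate 3, so the groups overlapped. *ATPLC2* alone made up 57.8% to 62.8% of the class C sum after oviposition and 57.5% to 59.5% after EE, against 58.9% to 65.9% in control leaves. Without it, class C reached 219 to 305 CPM after oviposition and 225 to 266 CPM after EE, against 256 to 327 CPM in control leaves, and the groups overlapped. Class A reached 240 to 446 CPM in oviposited and 366 to 1085 CPM in EE-treated leaves, against 210 to 402 CPM in control leaves. *PLP2* made up 66.4% to 84.7% of the class A sum after EE and 46.6% to 66.4% after oviposition, against 31.3% to 49.3% in control leaves. The class A sum without *PLP2* was 128 to 205 CPM after oviposition and 123 to 168 CPM after EE, against 144 to 207 CPM in control leaves.

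**Figure D4:**
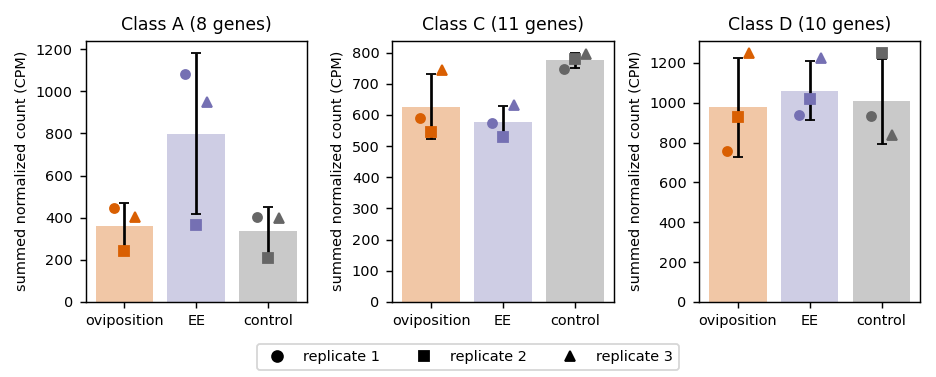
Summed normalized counts (CPM, y axis from 0) of class A, C and D genes in oviposition, EE and control libraries. Bars are means, error bars the SD over 3 libraries, and symbols single libraries. Class C sums of treated libraries lie below all control sums of 749 to 795 CPM in the deposited values, the highest treated sum being 745 CPM. Without the authors' scale step, class C sums of treated and control libraries overlap. Class D sums overlap.

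EE and oviposition were compared directly, which asks whether the extract acts on these genes as the eggs do. None of the 39 genes passed (limma, lowest adjusted p = 0.999, and 0 genes with the block), against 0.017% of all genes without the block and 0.00568% with it. At an unadjusted p under 0.05, 3 genes differed, all higher after EE, against 2.85% of all genes. These were *PLP2* with a log2 difference of 1.58 ± 0.63, AT2G20950 with 1.05 ± 0.43 and *PLDGAMMA1* with 0.83 ± 0.29 (SE). Libraries did not overlap in 3 of the 39 genes, against 10.3% of all genes. The mean after EE was above that after oviposition in 4 of 8 class A genes (median log2 difference −0.03), 4 of 11 class C genes (−0.15) and 9 of 10 class D genes (0.37), beside 45.9% of all genes and a median of −0.04. For AT4G35110 the difference was 0.20, with a 95% interval of −0.60 to 1.01.

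Without the block, the 95% intervals of most genes in classes A, C and D were wide. They lay wholly inside a 2-fold change in either direction for 8 of the 29 genes after oviposition and for 9 of the 29 after EE. Such narrow intervals were found for 0 of 8 class A genes, whose intervals all reached or passed a 2-fold change in both comparisons with control. In class C they were found for 3 of 11 genes in each comparison, and in class D for 5 of 10 after oviposition and 6 of 10 after EE. The median SD within groups was 0.72 in class A, 0.48 in class C and 0.39 in class D, beside 0.45 over all genes (log2).

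Genes around these enzymes were read from a list made up of diacylglycerol kinases, phosphatidic acid phosphatases, lysophospholipid acyltransferases, phosphatidylcholine synthesis, phosphatidylinositol phosphate 5-kinases and DAD1-like acyl hydrolases. Of 48 genes listed, 36 were measured, and 0 passed in any of the 3 comparisons, with or without the block (limma). At an unadjusted p under 0.05, 1 of the 36 differed after oviposition, against 7.69% of all genes, and 2 of the 36 after EE, against 13.4% of all genes. The median log2 fold change of the list was 0.01 after oviposition and 0.08 after EE. Of the 6 groups, DAD1-like and plastid acyl hydrolases had a median of 0.72 after oviposition and 0.64 after EE over 5 measured genes. All 5 were higher after oviposition and 4 of 5 after EE, with AT1G51440 at −0.54 ± 0.28 after EE (SE, limma adjusted p = 0.465). The largest changes were in AT3G62590 (1.31 ± 0.67 and 1.82 ± 0.67) and AT2G30550 (0.83 ± 0.29 and 0.97 ± 0.29, SE, oviposition before EE). The genes counted above at an unadjusted p under 0.05 against control all belonged to this group. DAD1 itself was among the listed genes that were not measured. The medians of the other 5 groups ran from −0.10 to 0.03 after oviposition and from −0.01 to 0.30 after EE.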

How the data were processed

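Libraries were made with a stranded mRNA kit and sequenced by Illumina HiSeq. Per the labels and the study's methods, the authors trimmed reads with cutadapt 1.5, mapped them to TAIR10 with STAR, counted them per gene (HTSeq) and normalized the counts by TMM (edgeR 3.4.0) to log2 CPM. The settings for reads shared by paralogs are not given in the sources used here. The deposited log2 values, which also share 1 median over genes in all libraries, were used as they stand, and whole reads were recovered from them (100% of values whole within 0.01 reads) for depth and as an alternative. Columns of the authors' own fold changes and p-values were not used.

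Members and lists were chosen with earlier results of these data known. limma 3.58.1 (R 4.3.3) was fitted to all 17605 genes and 9 libraries with 1 mean per group and a mean-variance trend, and p-values were adjusted by Benjamini-Hochberg with a threshold of 0.05. Values per library were given for genes past the threshold and, per subclass, the gene with the largest change against control; others are named by level, range or non-overlap, chosen after their values were seen. Same-numbered EE and control libraries deviated together (r = 0.34, 0.78 and 0.32 over all genes), as did EE and oviposition (0.55, 0.76 and 0.53), but oviposition and control did not (0.02, 0.67 and −0.16). The number was therefore used as a block beside EE results. EE replicates 1 and 3 correlated more with the crossed controls 3 and 1 (0.43 and 0.35) than with their own numbers. The same held for oviposition replicates 1 and 3 (0.61 and 0.43). Alternatives changed the variance model, scaling, pseudocount, low-value filter, count model and libraries. Promoters and transcript lengths came from RefSeq TAIR10.1, which held 17512 of the gene IDs, all at overlapping positions. CPM per kb divides by the RefSeq transcript length. Libraries of one group came from separate experiments. Intervals are at 95%.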

Additional observations from a re-analysis of the deposited data

Results flagged for a closer look

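Measured against the control mean, all 3 EE libraries lay above it and all 3 oviposition libraries below it in *PLDGAMMA1* and *PLDGAMMA3*. The share of all genes with this pattern was not counted. EE and oviposition libraries did not overlap in 3 of the 39 genes, against 10.3% of all genes. The direct EE minus oviposition difference was 0.83 ± 0.29 in *PLDGAMMA1* and 0.48 ± 0.27 in *PLDGAMMA3* (log2, SE, limma adjusted p = 0.999 for each), so neither passed over all genes. Control libraries spread from 5.76 to 6.64 in *PLDGAMMA1* and from 4.56 to 5.61 in *PLDGAMMA3*. These neighbouring genes share sequence, and the part of shared reads in their likeness was not tested.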

How the results depend on the processing

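After oviposition, 1 gene passed in the analysis reported; 0 passed with precision weights (vooma), a replicate block, a fit of only the 2 groups compared, quantile normalization, a filter at a mean log2 value of 0, voom on recovered reads, without the 3 libraries of number 2, and with the block after undoing the authors' scale step or after quantile normalization. Leaving out 1 library gave 0 to 2 genes. After EE, 1 gene passed in the analysis reported. With the replicate block 3 passed, also on voom values, without the scale step or after quantile normalization. A fit of only the 2 groups compared gave 0, and leaving out the 3 libraries of number 2 gave 2 (*PLP2* and AT2G20950). When 1 library was left out, 0 to 3 genes passed without the block and 0 to 4 with it. For AT4G35110, 6 of 22 alternatives kept the call after oviposition (limma adjusted p from 0.0279 to 0.202) and 17 of 22 the call after EE (0.0102 to 0.0822). With the block its adjusted p was 0.0539 after oviposition and 0.024 after EE (limma). Direct EE minus oviposition counts were 0 in each of the alternatives run, except that *PLP2* passed with the block and without control replicate 3. The list of surrounding lipid genes gave 0 throughout. Combining the block with another choice, undoing the scale step and leaving out number 2 were chosen after seeing the data.

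Directions of uncalled genes turned when 1 library was left out, and the cause was not tested. In oviposited minus control leaves, log2 fold changes ran from −0.88 to 0.071 in *PLA2-BETA*, −0.068 to 0.83 in *PLP2*, −0.92 to 0.082 in *PLC7* and −1.43 to 0.088 in AT4G38530. In EE-treated minus control leaves AT4G38530 ran from −0.88 to 0.56. In EE-treated minus oviposited leaves the ranges were −0.049 to 0.19 in *ATSPLA2-ALPHA*, −0.50 to 0.73 in *PLDP2*, −0.23 to 1.26 in AT4G38530 and −0.80 to 0.058 in AT4G38560. Class medians ran from −0.42 to 0.13 (A) and −0.39 to 0.025 (C) after oviposition, and from −0.49 to −0.15 (A), −0.51 to −0.17 (C) and −0.032 to 0.37 (D) after EE. With 3 libraries a group, an exact permutation test of a single gene cannot go below p = 0.1.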
